A study of Homo sapiens with 16 samples.

Results

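The genes described here are 48 NRF2 targets and antioxidant enzymes, named one by one in a rule that uses no measured value but was drawn up with earlier results of these data known. All 48 were found by symbol among the 35106 genes of the count table. The rule sets 8 mitochondrial enzymes (SOD2, PRDX3, PRDX5, TXN2, TXNRD2, GLRX2, GLRX5 and NNT) against the other 40. NRF2, encoded by NFE2L2, is a transcription factor that KEAP1 holds in the cytoplasm and hands to a ubiquitin ligase. When oxidants or electrophiles modify KEAP1, NRF2 escapes, pairs with a small Maf protein and binds antioxidant response elements in genes for quinone reduction, thioredoxin and glutathione chemistry, conjugation and drug efflux. Peroxide is removed by peroxiredoxins, glutathione peroxidases and catalase, and superoxide by the superoxide dismutases. Mitochondria carry their own set of these enzymes, fed with NADPH in part by NNT.

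RNA was sequenced from 2 human breast cancer cell lines, in 16 libraries. MDA-MB-231, a mesenchymal line that lacks hormone receptors and ERBB2 amplification, was used at passage 25, with 5 control libraries and 5 from cells given 500 nM MitoQ for 48 h. SKBR3 carries an amplified ERBB2 gene and was used at passage 10, with 3 control libraries and 3 from cells given the same dose for the same time. MitoQ is a ubiquinone coupled to a triphenylphosphonium cation, which carries it into mitochondria. Line and passage cannot be told apart. What the control cells received, and whether replicates came from separate cultures, is not given in the sources used here, so p-values measure the spread between these libraries, which may be technical. All are bulk samples, in which fewer cells of a type and less RNA per cell cannot be told apart.

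The deposited estimated counts summed to between 14723152 and 29294865 per library. Levels are given as CPM, counts scaled to a common library size after TMM adjustment over all 16 libraries, with the SD over libraries. Fold changes are MitoQ over control on the log2 scale with their SE, and a gene is called higher or lower where edgeR's quasi-likelihood test gave a Benjamini-Hochberg adjusted p under 0.05 over all genes tested. In controls all 5 markers of each line were higher in that line: ERBB2 lay at 5325 CPM in SKBR3 controls and 54.1 CPM in MDA-MB-231 controls, and VIM at 0.179 and 3407 CPM. Some markers of the other line moved with MitoQ. In MDA-MB-231 3 of 5 SKBR3 markers rose (SPDEF from 6.01 to 14.2 CPM, GRB7 and FOXA1 with group means under 3 CPM) and the sum of all 5 lay at 233 to 269 CPM in controls and 193 to 279.8 CPM with MitoQ. In SKBR3 2 of the 3 MDA-MB-231 markers tested rose (CD44 from 16.9 to 37.6 CPM and CAV1 from 2.95 to 4.42 CPM), and the sum of all 5 lay between 19.6 and 21.5 CPM in controls and between 40.6 and 46.3 CPM with MitoQ, against 6514 to 6986 CPM in MDA-MB-231 controls. Markers of other cell types were at or near 0 for T cells (CD3E) and leukocytes (PTPRC), while CD68 lay at 42.8 CPM in MDA-MB-231 controls and 5.69 CPM in SKBR3 controls. In the same order of controls COL1A1 lay at 6.43 and 6.86 CPM, PECAM1 at 2.57 and 2.72 CPM, DCN at 0.73 and 1.46 CPM, and PDGFRB at 2.08 and 0.179 CPM. Of the 7 such markers 5 were tested in MDA-MB-231, of which 2 fell with MitoQ, and 4 in SKBR3, of which 1 rose; the part of all these markers in the results was not tested. MDA-MB-231 MitoQ library 2 stood apart from the other MitoQ libraries of its line on the second principal component, and SKBR3 control library 3 lay nearer to the MitoQ libraries than the other controls did. Without those libraries 37 members in place of 35 were called in MDA-MB-231, and 23 in place of 22 in SKBR3.

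Antioxidant response elements are the sequence through which NRF2 acts, so the promoters of members that rose in both lines and carry its core are shown first. The core was searched as TGACNNNGC on both strands of the 250 bases before and 50 bases after each RefSeq start site of build GRCh38.p14; it can overlap the AP-1 site TGACTCA. A promoter was given for 39 of the 48 members, 15 of them with more than 1 start, and 7 members held the core, 17.9% of the 39 against 16.1% of all 27305 genes with a promoter entry and 13.3% of all 35116 promoters. The longer form, with an A after the core, was held by 6 members, 15.4% against 3.94% of all genes. A match describes these letters and says nothing of binding. Among the members that rose in both lines the core lay in EPHX1, TXNRD1 and MGST1, in MGST1 31 bases after the start. The 150 bases before the start are printed 5′ to 3′ on the gene's strand with each core in capitals, for EPHX1 (chr1:225825204-225825353, plus strand) and for both starts of TXNRD1 (chr12:104215629-104215778, plus strand, and chr12:104286882-104287031, plus strand), where the second start has the core on the opposite strand and the first start has 1 on each strand.
EPHX1: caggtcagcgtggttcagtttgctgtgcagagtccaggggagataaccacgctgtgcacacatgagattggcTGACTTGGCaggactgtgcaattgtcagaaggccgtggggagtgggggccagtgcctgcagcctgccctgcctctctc
TXNRD1 first start: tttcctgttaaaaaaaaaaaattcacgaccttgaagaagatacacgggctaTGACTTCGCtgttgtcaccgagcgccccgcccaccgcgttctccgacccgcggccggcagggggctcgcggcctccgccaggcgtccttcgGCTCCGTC
TXNRD1 second start: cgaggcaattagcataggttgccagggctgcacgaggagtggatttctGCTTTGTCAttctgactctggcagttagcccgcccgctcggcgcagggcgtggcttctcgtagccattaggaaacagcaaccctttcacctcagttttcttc
In EPHX1 the core began 78 bases before the start, and in TXNRD1 99 bases before the first and 102 before the second. The other core at the first start of TXNRD1, GCTCCGTCA on the gene's strand, began 8 bases before it, and its last base lies past the printed stretch. KEAP1 held the core 54 and 31 bases before its start and GSTO1 226 and 161 bases before; both rose in MDA-MB-231 by small amounts given further on. PIR and GSTP1 held a core that overlaps an AP-1 site, in GSTP1 TGACTCAGC 66 bases before the start, and neither was called with MitoQ in either line. NQO1 and SQSTM1 had no match in this window. The 9 members with no promoter entry were HMOX1, TXN2, ABCC1, ABCC3, AKR1B10, PRDX1, PRDX6, SOD1 and MSRA.

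With MitoQ, 25 of the 48 members rose and 10 fell in MDA-MB-231, and 13 were not called. Of all 15304 genes tested in that comparison 57.5% were called, 29.9% higher and 27.6% lower. The median log2 fold change of the members was 0.17, against 0.01 over all genes tested. In SKBR3 44 members passed the filter on low counts; 12 rose, 10 fell and 22 were not called, with a median of 0.10 against -0.00064 over all genes tested. Of all 15026 genes tested there 28.0% were called, 13.8% higher and 14.1% lower. AKR1B1, AKR1C3, GPX7 and MSRA were too low in SKBR3 to be tested. Without SKBR3 MitoQ library 2 the members called in SKBR3 numbered 14, of 2565 genes called in all, and a single fit over all libraries also called 14. The share of members that rose was thus above that of all genes in both lines, and the share that fell was below it in MDA-MB-231 and above it in SKBR3; these are counts with no test of the list.

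Higher in both lines were 9 members: NQO1, HMOX1, TXNRD1, SQSTM1, MAFG, EPHX1, ABCC2, MGST1 and BLVRB. They are 36% of the 25 that rose in MDA-MB-231 and 75% of the 12 that rose in SKBR3. Of all genes called higher, 869 were shared, 19.0% of the 4574 in MDA-MB-231 and 41.9% of the 2076 in SKBR3. Lower in both were CAT, PRDX1, PRDX2, PRDX3, SOD1 and TXN2, 6 members that make up 60% of the 10 that fell in each line. Of all genes called lower, 952 were shared, 22.5% of the 4231 in MDA-MB-231 and 44.8% of the 2126 in SKBR3; the members' shares have no test against these. NFE2L2 alone was called in opposite directions. Several SKBR3 calls behind these counts were lost when single libraries were left out, as given below. These include the calls of NFE2L2, BLVRB, MGST1, PRDX2, SOD1 and TXN2. The plot of fold changes by role sets the lines side by side.

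**Figure D1:**
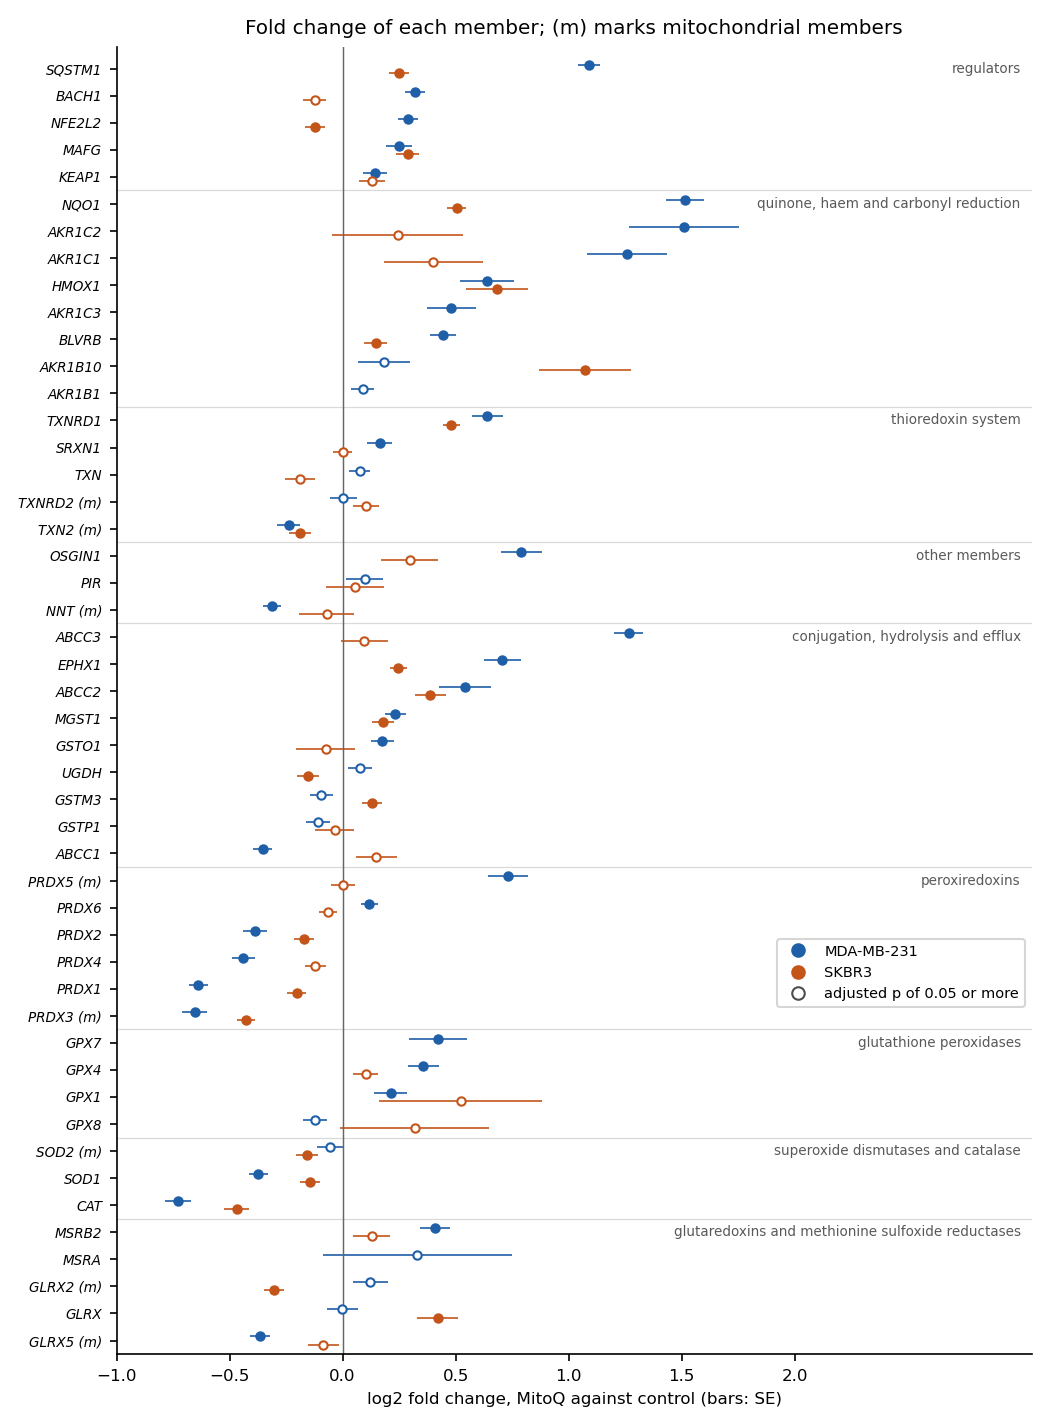
Log2 fold change of each member with MitoQ against control (x axis; bars are SE) in MDA-MB-231 (blue) and SKBR3 (orange), grouped by role on the y axis; filled points have an adjusted p under 0.05, (m) marks the mitochondrial members, and a missing orange point was not tested. NQO1, AKR1C2, ABCC3, AKR1C1 and SQSTM1 lie above 1 in MDA-MB-231, AKR1B10 is the one member above 1 in SKBR3, and the peroxiredoxins other than PRDX5 and PRDX6, with catalase and SOD1, lie left of 0 in both lines.

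Among the regulators, all 5 rose in MDA-MB-231 and 2 in SKBR3. Counts by role, here and below, stand beside the shares of all genes tested. Those were 29.9% higher and 27.6% lower in MDA-MB-231, and 13.8% and 14.1% in SKBR3. Each role holds few members, and its counts have no test. SQSTM1, the autophagy receptor p62 that binds KEAP1 (ENSG00000161011, chr5:179806398-179838078, plus strand), moved most in MDA-MB-231. Its level was 156, 149, 148, 139 and 135 CPM in the control libraries and 286, 307, 298, 306 and 328 CPM in the MitoQ libraries. Every MitoQ library lay above every control, and the gene was 2.13-fold higher (log2 fold change 1.09 ± 0.05 SE, adjusted p = 1.03e-12). In SKBR3 the controls had 206, 198 and 226 CPM and the MitoQ libraries 242, 252 and 268 CPM, again without overlap, a smaller rise (log2 fold change 0.25 ± 0.04 SE, adjusted p = 9.89e-04). The effect in SKBR3 minus that in MDA-MB-231, the way all differences between the lines are written here, was -0.80 ± 0.08 (adjusted p = 2.79e-08).

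MAFG, a small Maf partner of NRF2, rose in both lines: the log2 fold change was 0.25 ± 0.06 in MDA-MB-231 (adjusted p = 0.0011) and 0.29 ± 0.05 in SKBR3 (adjusted p = 7.01e-04). The SKBR3 controls had 39.8, 38.9 and 41.4 CPM and the MitoQ libraries 49.3, 49.3 and 50.3 CPM. In MDA-MB-231 the controls had 54.8, 54.1, 51.7, 53.0 and 51.6 CPM and the MitoQ libraries 58.6, 70.7, 55.8, 61.6 and 63.6 CPM. The groups did not overlap in either line, and the difference between the lines was 0.08 ± 0.09 (adjusted p = 0.52). NFE2L2 itself lay at 98.5, 100.4, 99.5, 92.5 and 96.1 CPM in MDA-MB-231 controls and 114, 122, 111, 118 and 119 CPM with MitoQ, so that all MitoQ libraries were above all controls (log2 fold change 0.29 ± 0.04 SE, adjusted p = 1.73e-05). In SKBR3 it lay at 72.1, 72.4 and 75.7 CPM and 66.1, 70.0 and 69.2 CPM, all MitoQ libraries below all controls, a change near the threshold (log2 fold change -0.12 ± 0.04 SE, adjusted p = 0.045). That SKBR3 call was lost when any 1 of the 6 libraries was left out, and under other size factors, while the difference between the lines was -0.37 ± 0.06 (adjusted p = 9.50e-05).

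BACH1, a haem-responsive repressor that competes with NRF2 at its elements, rose in MDA-MB-231 (log2 fold change 0.32 ± 0.04 SE, adjusted p = 5.35e-06), and in SKBR3 its value was -0.12 ± 0.05 (adjusted p = 0.089). The difference between the lines was -0.40 ± 0.07 (adjusted p = 1.15e-04). KEAP1 rose by 0.14 ± 0.05 in MDA-MB-231 (adjusted p = 0.025), a call that was lost without control library 4, control library 5, MitoQ library 4 or MitoQ library 5. In SKBR3 KEAP1 gave 0.13 ± 0.06 (adjusted p = 0.11), which was called without control library 3.

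Of the 8 genes for quinone, haem and carbonyl reduction, 6 rose in MDA-MB-231, where 29.9% of all genes did. In SKBR3 4 of the 6 tested rose, where 13.8% of all genes did. None fell in either line. NQO1, the quinone reductase widely used as a reporter of NRF2 activity (ENSG00000181019, chr16:69706996-69726951, minus strand), lay at 98.5, 94.4, 94.4, 91.8 and 105 CPM in MDA-MB-231 controls and 235, 336, 245, 270.0 and 278 CPM with MitoQ. MitoQ library 2 was the highest, and all MitoQ libraries were far above every control. NQO1 was 2.86-fold higher (log2 fold change 1.52 ± 0.08 SE, adjusted p = 7.15e-10). In SKBR3 the controls had 140.1, 138 and 135 CPM and the MitoQ libraries 187, 200.2 and 207 CPM, without overlap and 1.42-fold higher (log2 fold change 0.50 ± 0.04 SE, adjusted p = 1.86e-06). NQO1 was among the members whose response differed between the lines, by -0.97 ± 0.12 (adjusted p = 3.28e-06).

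AKR1B10, an aldo-keto reductase, rose most in SKBR3, from 1.68, 2.33 and 1.34 CPM to 3.62, 3.88 and 3.50 CPM, which is 2.10-fold (log2 fold change 1.07 ± 0.20 SE, adjusted p = 0.0014). All of its SKBR3 MitoQ libraries lay above all controls, at a level of a few CPM. In MDA-MB-231 the controls had 3.84, 3.03, 3.22, 3.61 and 3.34 CPM and the MitoQ libraries 4.33, 3.69, 3.38, 3.88 and 3.71 CPM, groups that overlapped (log2 fold change 0.18 ± 0.12 SE, adjusted p = 0.19). The SKBR3 response exceeded that of MDA-MB-231 by 0.93 ± 0.22 (adjusted p = 0.0021). The steroid-metabolising AKR1C genes rose in MDA-MB-231, where the log2 fold change was 1.51 ± 0.24 for AKR1C2, 1.26 ± 0.18 for AKR1C1 and 0.48 ± 0.11 for AKR1C3. In SKBR3 AKR1C2 gave 0.24 ± 0.29 (adjusted p = 0.59) and AKR1C1 0.40 ± 0.22 (adjusted p = 0.2). Their levels were low, with group means of 0.459 ± 0.163 and 1.30 ± 0.125 CPM for AKR1C2 in control and MitoQ cells, and 0.969 ± 0.157 and 2.28 ± 0.344 CPM for AKR1C1 (n = 5 each). In AKR1C2 48.2% and in AKR1C1 35.7% of the 31-base stretches of their transcripts also occur in transcripts of other genes, so the split of reads between them is uncertain; for AKR1B10 the share was 30.7%.

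HMOX1, the stress-induced haem oxygenase, rose in both lines. In MDA-MB-231 it lay at 5.69, 4.59, 4.56, 3.998 and 5.01 CPM in controls and 8.13, 5.34, 7.64, 7.64 and 7.79 CPM with MitoQ. MitoQ library 2 was the lowest, inside the control range, whereas the same library was the highest for NQO1 and TXNRD1. The log2 fold change was 0.64 ± 0.12 (adjusted p = 1.64e-04). In SKBR3 HMOX1 went from 4.71, 3.79 and 5.10 CPM to 7.47, 6.71 and 8.40 CPM with no overlap (log2 fold change 0.68 ± 0.14 SE, adjusted p = 0.0021), and the difference between the lines was 0.09 ± 0.20 (adjusted p = 0.8). BLVRB, a biliverdin and flavin reductase that acts after haem oxygenase, rose by 0.44 ± 0.06 in MDA-MB-231 (adjusted p = 2.42e-06) and by 0.15 ± 0.05 in SKBR3 (adjusted p = 0.038). The SKBR3 call of BLVRB was lost without control library 1, MitoQ library 2 or MitoQ library 3. AKR1B1, aldose reductase, was not called in MDA-MB-231 (0.09 ± 0.05, adjusted p = 0.15), and was called without MitoQ library 2.

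**Figure D2:**
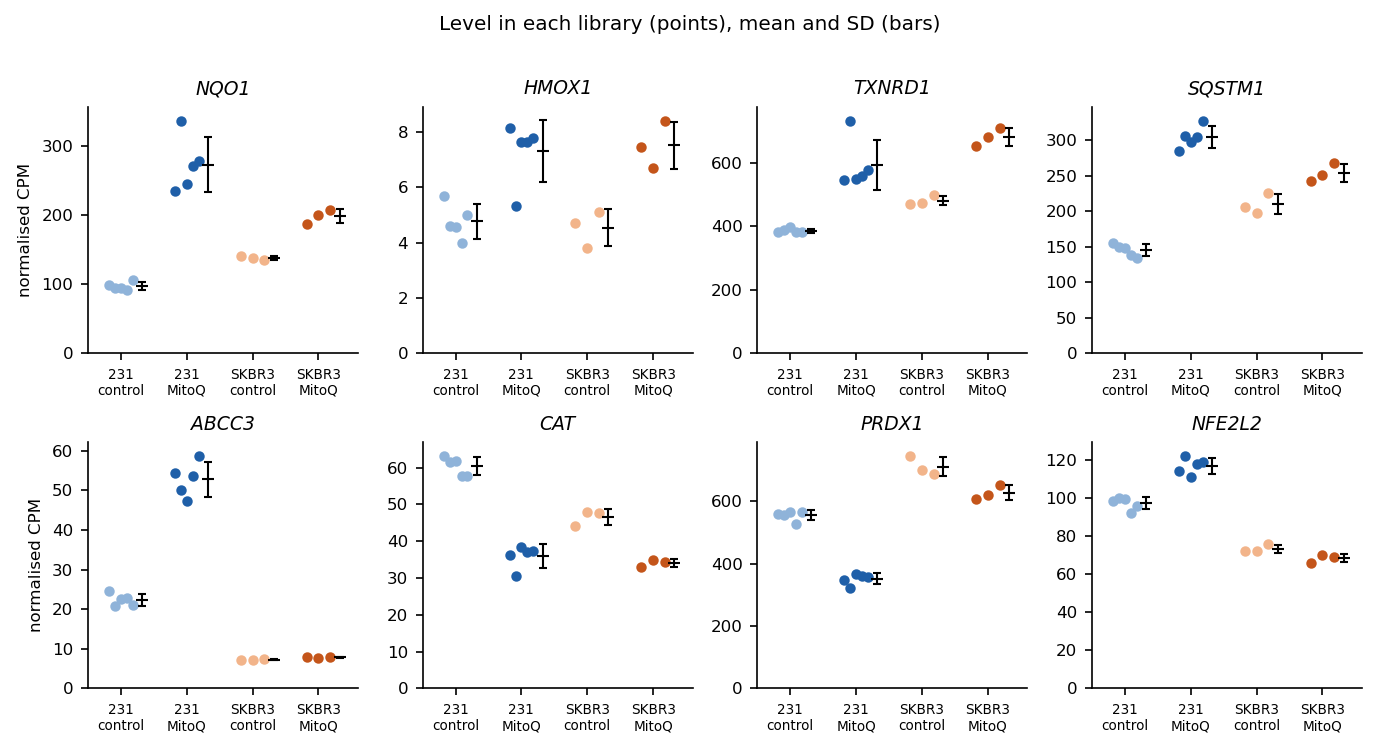
Normalised CPM (y axis, from 0) of 8 members in each library (points) of the 4 groups on the x axis, with the mean and SD beside them (n = 5 for MDA-MB-231, written 231, and n = 3 for SKBR3). NQO1, TXNRD1 and SQSTM1 are higher in every MitoQ library of either line than in its controls, CAT and PRDX1 are lower, ABCC3 separates in MDA-MB-231, and NFE2L2 moves up in MDA-MB-231 and down in SKBR3.

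Among the genes for conjugation, hydrolysis and efflux, 5 of 9 rose and 1 fell in MDA-MB-231 (all genes: 29.9% and 27.6%). In SKBR3 4 rose and 1 fell (all genes: 13.8% and 14.1%). ABCC3, an exporter of conjugated organic anions, had the largest rise in MDA-MB-231, from 24.5, 20.8, 22.5, 22.9 and 20.9 CPM to 54.5, 50.1, 47.3, 53.6 and 58.6 CPM. The groups were far apart, and ABCC3 was 2.40-fold higher (log2 fold change 1.26 ± 0.06 SE, adjusted p = 4.28e-12). In SKBR3 it went from 7.04, 7.19 and 7.31 CPM to 8.001, 7.58 and 7.81 CPM and was not called (0.10 ± 0.11, adjusted p = 0.55); the responses differed by -1.13 ± 0.12 (adjusted p = 1.04e-07). ABCC2, a related exporter, was the efflux gene that moved most in SKBR3, from 23.4, 23.2 and 20.7 CPM to 28.8, 29.1 and 31.02 CPM, with no overlap (log2 fold change 0.39 ± 0.07 SE, adjusted p = 8.90e-04). In MDA-MB-231 ABCC2 rose from 4.34, 4.98, 4.17, 5.03 and 4.80 CPM to 7.36, 7.97, 5.34, 6.37 and 6.29 CPM (log2 fold change 0.54 ± 0.12 SE, adjusted p = 4.90e-04). ABCC1, a further exporter of glutathione conjugates, fell in MDA-MB-231 (log2 fold change -0.35 ± 0.04 SE, adjusted p = 6.27e-07), and its value in SKBR3 was 0.15 ± 0.09 (adjusted p = 0.26), which was called without MitoQ library 3. The effects on ABCC1 differed by 0.54 ± 0.09 (adjusted p = 3.09e-05).

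EPHX1, the microsomal epoxide hydrolase whose promoter is printed above, rose by 0.71 ± 0.08 in MDA-MB-231 (adjusted p = 5.48e-07) and by 0.25 ± 0.04 in SKBR3 (adjusted p = 3.13e-04). MGST1, a membrane-bound glutathione transferase, rose by 0.23 ± 0.05 (adjusted p = 3.73e-04) and 0.18 ± 0.05 (adjusted p = 0.012), the latter call lost without SKBR3 MitoQ library 3. GSTO1, an omega-class glutathione transferase, rose in MDA-MB-231 by 0.18 ± 0.05 (adjusted p = 0.0074), and this call was lost in a single fit over all libraries. GSTP1, the abundant pi-class transferase with a core in its promoter, was not called in MDA-MB-231 (-0.11 ± 0.05, adjusted p = 0.096); it was called lower without control library 4 or MitoQ library 5. GSTM3, a mu-class transferase, was called higher in SKBR3 (0.13 ± 0.05, adjusted p = 0.043) and gave -0.09 ± 0.05 in MDA-MB-231 (adjusted p = 0.12), and UGDH, which makes the UDP-glucuronate used in glucuronidation, was called lower in SKBR3 (-0.15 ± 0.05, adjusted p = 0.032). The call of GSTM3 was lost without any 1 of SKBR3 control library 2 and MitoQ libraries 1, 2 and 3, and that of UGDH without any 1 of the 6 SKBR3 libraries.

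In the thioredoxin system the cytosolic reductase rose in both lines, and the mitochondrial reductase was called in neither. Mitochondrial thioredoxin was called lower in both lines and cytosolic thioredoxin in neither, though in SKBR3 both gave -0.19. TXNRD1, the selenoenzyme that reduces thioredoxin (ENSG00000198431, chr12:104215779-104350305, plus strand), lay at 382, 387, 397, 382 and 382 CPM in MDA-MB-231 controls and 546, 733, 548, 559.6 and 578 CPM with MitoQ. MitoQ library 2 was well above the other MitoQ libraries, all of which were above the controls (1.56-fold; log2 fold change 0.64 ± 0.07 SE, adjusted p = 5.34e-07). In SKBR3 it rose from 471, 473 and 498 CPM to 654, 681 and 709 CPM, without overlap (1.40-fold; log2 fold change 0.48 ± 0.04 SE, adjusted p = 1.14e-06). The difference between the lines was -0.11 ± 0.10 (adjusted p = 0.41). TXN, cytosolic thioredoxin, was called in neither line; its log2 fold change was 0.08 ± 0.05 in MDA-MB-231 (adjusted p = 0.17) and -0.19 ± 0.07 in SKBR3 (adjusted p = 0.058), and it was called lower in SKBR3 without control library 3. SRXN1, sulfiredoxin, which repairs overoxidised peroxiredoxins, rose in MDA-MB-231 by 0.16 ± 0.06 (adjusted p = 0.016) and gave 0.00 ± 0.04 in SKBR3 (adjusted p = 0.99). Its counts are uncertain, since 84.9% of its 31-base stretches also occur in annotated transcripts of other genes.

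The peroxiredoxins split by member. In MDA-MB-231 4 of 6 fell and 2 rose (all genes: 27.6% and 29.9%), and in SKBR3 3 fell and none rose (all genes: 14.1% and 13.8%). PRDX1, the abundant cytosolic enzyme, fell from 558, 557, 566, 527 and 566 CPM to 346, 323, 367, 362 and 358 CPM in MDA-MB-231 (1.56-fold lower; log2 fold change -0.64 ± 0.04 SE, adjusted p = 3.95e-10). In SKBR3 it fell from 745, 700.0 and 689 CPM to 607, 620.0 and 654 CPM (log2 fold change -0.20 ± 0.04 SE, adjusted p = 0.0022), and in both lines every MitoQ library lay below every control. PRDX2, also cytosolic, fell by 0.39 on the log2 scale in MDA-MB-231 (adjusted p = 4.49e-06) and fell by 0.17 in SKBR3 (adjusted p = 0.01); the SKBR3 call was lost without control library 3, MitoQ library 1 or MitoQ library 2. PRDX4 of the endoplasmic reticulum was -0.44 ± 0.05 in MDA-MB-231 (adjusted p = 8.30e-07) and -0.12 ± 0.05 in SKBR3 (adjusted p = 0.075), called there without MitoQ library 3. PRDX6, the 1-Cys peroxiredoxin, rose slightly in MDA-MB-231 (0.12 ± 0.04, adjusted p = 0.011), a call lost with no filter on low counts. Summed over the 6 peroxiredoxins the level was 1206 ± 31.3 CPM in MDA-MB-231 controls and 921 ± 41.3 CPM with MitoQ (SD, n = 5), and 1444 ± 44.6 and 1294 ± 58.2 CPM in SKBR3 (SD, n = 3). These sums are not scaled by gene length, and PRDX1 alone had 555 CPM in MDA-MB-231 controls and 711 CPM in SKBR3 controls.

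Among the glutathione peroxidases 3 of 4 rose and none fell in MDA-MB-231 (all genes: 29.9% and 27.6%). In SKBR3 3 were tested and none was called (all genes: 28.0%). GPX7, an enzyme of the endoplasmic reticulum, had the largest change, from 2.23, 1.98, 2.12, 2.02 and 2.16 CPM to 2.85, 2.37, 2.99, 2.89 and 2.79 CPM in MDA-MB-231, with no overlap at a low level (log2 fold change 0.42 ± 0.13 SE, adjusted p = 0.0088). It had no count in any SKBR3 library. GPX4, the selenoenzyme that reduces lipid hydroperoxides in membranes, rose in MDA-MB-231 from 130.0, 119, 122, 111 and 118 CPM to 148, 121, 163, 162 and 164 CPM (log2 fold change 0.36 ± 0.07 SE, adjusted p = 2.92e-04). MitoQ library 2 was the lowest and lay inside the control range. In SKBR3 GPX4 gave 0.10 ± 0.06 (adjusted p = 0.2), which was called higher without control library 3. GPX1, the main cytosolic selenoperoxidase, rose in MDA-MB-231 from 255, 227, 232, 208 and 252 CPM to 235, 235, 289.9, 284 and 299 CPM, groups that overlapped (log2 fold change 0.21 ± 0.07 SE, adjusted p = 0.019). That call was lost without control library 4, MitoQ library 3 or MitoQ library 5. The largest value of the family in SKBR3 was that of GPX1, at 0.596, 0.333 and 0.398 CPM in controls and 0.578, 0.58 and 0.808 CPM with MitoQ, a handful of counts per library (log2 fold change 0.52 ± 0.36 SE, adjusted p = 0.32). GPX8, the other enzyme of the endoplasmic reticulum, was -0.12 ± 0.05 in MDA-MB-231 (adjusted p = 0.052) and was called lower without MitoQ library 2 and with other size factors.

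Catalase and the superoxide dismutases did not rise in either line. CAT, the peroxisomal catalase (ENSG00000121691, chr11:34438925-34472062, plus strand), fell from 63.1, 61.7, 61.9, 57.8 and 57.7 CPM to 36.2, 30.5, 38.5, 37.1 and 37.5 CPM in MDA-MB-231 (1.66-fold lower; log2 fold change -0.73 ± 0.06 SE, adjusted p = 4.18e-09). In SKBR3 it fell from 44.0, 48.0 and 47.6 CPM to 32.9, 34.9 and 34.5 CPM (1.38-fold lower; log2 fold change -0.47 ± 0.06 SE, adjusted p = 3.91e-05). No MitoQ library reached the lowest control of its line, and MDA-MB-231 MitoQ library 2 was the lowest of all. SOD1, the cytosolic copper and zinc enzyme, fell by 0.37 on the log2 scale in MDA-MB-231 (adjusted p = 2.62e-07) and fell by 0.15 in SKBR3 (adjusted p = 0.027). The SKBR3 call of SOD1 was lost without control library 1, control library 2, or any 1 of the 3 MitoQ libraries.

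Of the glutaredoxins and methionine sulfoxide reductases outside the mitochondrial set, MSRB2 had the largest change in MDA-MB-231. MSRB2 reduces oxidised methionine and is itself a mitochondrial protein, though the rule places it with the others. It rose from 17.1, 16.6, 19.7, 18.6 and 16.7 CPM to 23.9, 20.4, 24.6, 24.5 and 22.7 CPM, with no overlap (log2 fold change 0.41 ± 0.07 SE, adjusted p = 4.30e-05); in SKBR3 it went from 12.1, 11.9 and 13.1 CPM to 13.4, 14.1 and 13.8 CPM and was not called (0.13 ± 0.08, adjusted p = 0.27). GLRX, cytosolic glutaredoxin, rose in SKBR3 from 12.0, 11.4 and 12.4 CPM to 14.1, 17.1 and 17.6 CPM (log2 fold change 0.42 ± 0.09 SE, adjusted p = 0.0033), all MitoQ libraries being above all controls. In MDA-MB-231 GLRX lay at 15.9, 14.74, 15.8, 16.1 and 18.6 CPM and 15.4, 17.2, 15.4, 15.1 and 16.7 CPM, with full overlap (-0.00 ± 0.07, adjusted p = 0.99), and the responses differed by 0.46 ± 0.12 (adjusted p = 0.0044). MSRA, the other reductase, lay at 1.23 CPM or less in every library and was not called in MDA-MB-231 (0.33 ± 0.42).

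OSGIN1, an NRF2-responsive growth inhibitor, rose in MDA-MB-231 from 7.89, 7.89, 7.39, 6.88 and 6.60 CPM to 11.2, 14.2, 11.8, 13.6 and 11.5 CPM, without overlap (log2 fold change 0.79 ± 0.09 SE, adjusted p = 4.29e-07). In SKBR3 it went from 5.20, 5.86 and 6.26 CPM to 6.75, 6.82 and 8.19 CPM, also without overlap, but was not called (0.30 ± 0.13, adjusted p = 0.096). The SKBR3 groups of ABCC3 and MSRB2 did not overlap either, and neither gene was called there. With so few SKBR3 libraries, groups without overlap are weak evidence alone, and their share over all genes was not counted. PIR, pirin, was called in neither line (0.10 ± 0.08 in MDA-MB-231 and 0.05 ± 0.13 in SKBR3).

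The mitochondrial members had no common rise. In MDA-MB-231 1 of 8 rose and 4 fell, with a median log2 fold change of -0.15, while of the other 40 members 24 rose and 6 fell, with a median of 0.22. In SKBR3 none of the 8 rose and 4 fell, with a median of -0.12, while of the 36 others tested 12 rose and 6 fell, with a median of 0.13. Of all genes tested 29.9% rose and 27.6% fell in MDA-MB-231 (median 0.01), and 13.8% rose and 14.1% fell in SKBR3 (median -0.00064). The 6 others that fell in MDA-MB-231 were PRDX1, PRDX2, PRDX4, SOD1, CAT and ABCC1. The peroxidases PRDX6, GPX1, GPX4 and GPX7 were among the 24 that rose there. The sets are those of the rule, and MSRB2, a mitochondrial protein that rose in MDA-MB-231, is counted among the others. Mitochondrial members and others differ in role as well as place, and these cannot be told apart. Genes are not replicates, so the difference between these lists has no test.

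PRDX3, the mitochondrial peroxiredoxin (ENSG00000165672, chr10:119167703-119178833, minus strand), fell in both lines. In MDA-MB-231 it lay at 230.5, 234, 239, 239 and 269.7 CPM in controls and 152, 152, 168, 148 and 138 CPM with MitoQ (1.57-fold lower; log2 fold change -0.66 ± 0.05 SE, adjusted p = 6.62e-09). In SKBR3 it went from 185, 168 and 182 CPM to 134, 131 and 139 CPM (1.34-fold lower; log2 fold change -0.43 ± 0.04 SE, adjusted p = 8.14e-06). Control and MitoQ libraries did not overlap in either line. PRDX5, a peroxiredoxin of mitochondria that is also found in peroxisomes and cytosol (ENSG00000126432, chr11:64318088-64321811, plus strand), was the single member of the rule's mitochondrial set that rose. It went from 69.8, 65.7, 71.6, 58.4 and 59.8 CPM to 98.8, 84.8, 115, 114 and 119.7 CPM in MDA-MB-231. The lowest MitoQ library, library 2, was above the highest control, and the rise was 1.66-fold (log2 fold change 0.73 ± 0.09 SE, adjusted p = 5.19e-06). In SKBR3 PRDX5 lay at 135, 124 and 125 CPM and 120.0, 130.1 and 140.3 CPM, groups that overlapped (log2 fold change 0.00 ± 0.05 SE, adjusted p = 0.99). The responses of PRDX5 differed between the lines by -0.69 ± 0.14 (adjusted p = 7.35e-04).

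TXN2, mitochondrial thioredoxin, fell by small amounts. Its levels were 42.1, 40.6, 40.1, 38.9 and 41.2 CPM in MDA-MB-231 controls and 32.2, 31.1, 34.6, 35.5 and 36.0 CPM with MitoQ (log2 fold change -0.24 ± 0.05 SE, adjusted p = 6.21e-04). In SKBR3 they were 56.2, 56.5 and 60.6 CPM and 50.7, 52.2 and 51.7 CPM (log2 fold change -0.19 ± 0.05 SE, adjusted p = 0.0086). The groups did not overlap in either line, and the SKBR3 call was lost without MitoQ library 2. TXNRD2, its reductase, was called in neither line. It lay at 21.8, 20.2, 21.1, 22.1 and 18.8 CPM and 20.5, 20.4, 19.3, 21.1 and 21.2 CPM in MDA-MB-231 (0.00 ± 0.06, adjusted p = 0.98). In SKBR3 it lay at 42.2, 46.0 and 49.7 CPM and 47.9, 51.1 and 51.9 CPM (0.10 ± 0.06, adjusted p = 0.21), and it was called higher without control library 3. The groups overlapped in both lines.

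GLRX5, a glutaredoxin of iron-sulphur cluster assembly, fell in MDA-MB-231 from 79.0, 76.2, 82.9, 78.6 and 78.8 CPM to 59.8, 63.7, 59.4, 59.3 and 60.4 CPM, without overlap (log2 fold change -0.36 ± 0.04 SE, adjusted p = 7.87e-07). In SKBR3 it lay at 42.2, 36.5 and 36.8 CPM and 35.3, 35.6 and 39.8 CPM, with overlap (-0.09 ± 0.07, adjusted p = 0.39); the difference between the lines was 0.32 ± 0.08 (adjusted p = 0.0026). GLRX2 showed the other order. It lay at 19.0, 19.6, 21.6, 23.6 and 23.5 CPM and 23.1, 26.4, 21.6, 22.7 and 21.2 CPM in MDA-MB-231, with overlap (0.12 ± 0.08, adjusted p = 0.18). In SKBR3 it fell from 85.0, 87.3 and 85.3 CPM to 67.0, 71.2 and 73.2 CPM, without overlap (log2 fold change -0.30 ± 0.04 SE, adjusted p = 1.85e-04), and the lines differed by -0.38 ± 0.10 (adjusted p = 0.0042).

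NNT, the inner-membrane transhydrogenase that makes NADPH (ENSG00000112992, chr5:43602692-43707405, plus strand), fell in MDA-MB-231 from 154, 155, 151, 152 and 150.1 CPM to 125, 121, 119.8, 122 and 117 CPM. The spread within each group was small and the groups lay apart (log2 fold change -0.31 ± 0.04 SE, adjusted p = 1.85e-06). In SKBR3 its level was low, at 6.61, 6.72 and 6.48 CPM and 7.08, 5.80 and 6.25 CPM, with overlap (-0.07 ± 0.12, adjusted p = 0.72). SOD2, the manganese superoxide dismutase of the mitochondrial matrix, lay at 164, 164, 159.7, 185 and 183 CPM in MDA-MB-231 controls and 178, 169, 162, 154 and 146 CPM with MitoQ, with overlap (-0.06 ± 0.06, adjusted p = 0.41). In SKBR3 it went from 260.3, 253 and 242 CPM to 241, 230.0 and 216 CPM, without overlap and called lower (log2 fold change -0.16 ± 0.05 SE, adjusted p = 0.029). That call was lost without control library 1, control library 2, MitoQ library 2 or MitoQ library 3. SOD2 stands in the table under more than 1 gene ID, of which the one with the higher total was used, and 18.1% of its 31-base stretches occur in transcripts of other genes.

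**Figure D3:**
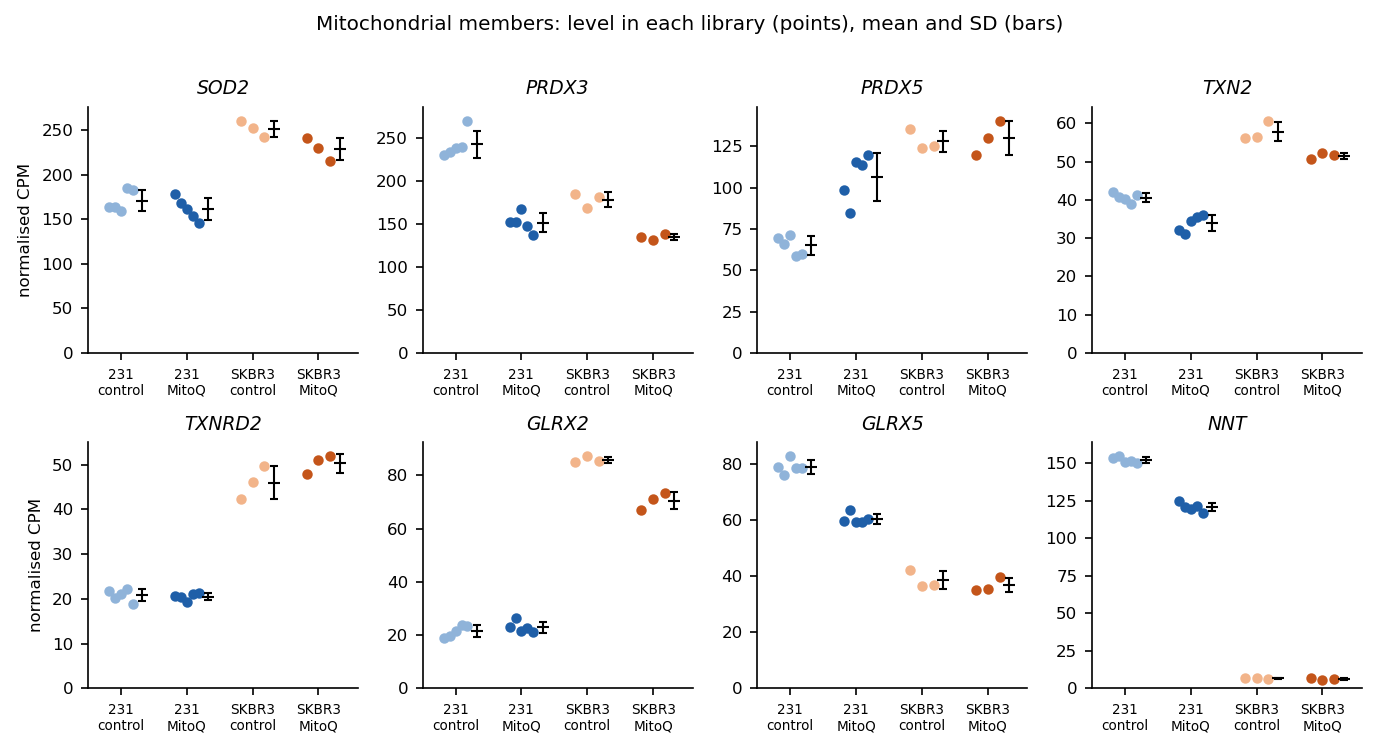
Normalised CPM (y axis, from 0) of the 8 mitochondrial members in each library (points) of the 4 groups on the x axis, with the mean and SD beside them (n = 5 for MDA-MB-231, written 231, and n = 3 for SKBR3). PRDX3 and TXN2 are lower with MitoQ in both lines, PRDX5 is higher in MDA-MB-231, GLRX2 is lower in SKBR3, and NNT lies near 150 CPM in MDA-MB-231 controls and under 7 CPM in SKBR3 controls.

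The effect of MitoQ differed between the lines for 26 of the 48 members, tested as the interaction of line and treatment. Of all 17094 genes tested there 34.1% differed, 19.1% more positive in SKBR3 and 14.9% more negative; of the members 13 went each way. The effect was more positive in MDA-MB-231 by the widest margin for AKR1C2 (-1.23 ± 0.39), ABCC3 (-1.13 ± 0.12) and NQO1 (-0.97 ± 0.12), and in SKBR3 for AKR1B10 (0.93 ± 0.22) and AKR1B1 (0.92 ± 0.35). AKR1B1 lay under 1 CPM in every SKBR3 library, and its call was lost in 13 of its alternatives, given in the closing part; that of AKR1C2 was lost without SKBR3 control library 1. For HMOX1, TXNRD1, MAFG, ABCC2, MGST1, TXN2 and TXNRD2 no difference between the lines was called. Among the peroxiredoxins, PRDX1 (0.48 ± 0.07), PRDX4 (0.36 ± 0.08), PRDX3 (0.27 ± 0.08) and PRDX2 (0.26 ± 0.08) all had positive differences: the fall of PRDX1, PRDX2 and PRDX3 was smaller in SKBR3, and PRDX4 was not called there. The call of PRDX2 was lost without SKBR3 control library 2 or MitoQ library 3, and those of PRDX2 and PRDX3 with plain library totals.

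Before treatment the lines already differed in 42 members, 18 higher and 24 lower in SKBR3 controls than in MDA-MB-231 controls. Of all 16398 genes tested 86.5% differed, 42.0% higher and 44.4% lower, so a difference was the usual case. Sizes are given for single members, and were not compared with the sizes over all genes. AKR1B1 (ENSG00000085662, chr7:134442350-134459284, minus strand) lay at 468, 450.5, 469, 409.5 and 444 CPM in MDA-MB-231 controls and 0.325, 0.399 and 0.29 CPM in SKBR3 controls, that is 56387 against 20 counts over the groups, a ratio of 1338 per library total with a 95% exact interval for counting error of 866 to 2190. GPX1 (ENSG00000233276, chr3:49357171-49358600, minus strand) lay at 235 ± 19.3 CPM (n = 5) and 0.442 ± 0.137 CPM (n = 3), with 29498 and 27 counts and a ratio of 518 (356 to 787). The annotation used here gives GPX1 the type polymorphic pseudogene, and 22.3% of its 31-base stretches occur in transcripts of other genes. GPX7 had 264 counts over the MDA-MB-231 controls and 0 over the SKBR3 controls, which makes it at least 41.8-fold lower against a floor of 3 counts over the group. GPX8 had a ratio of 95 (70.7 to 131), so that GPX4, at 119.9 ± 7.04 and 93.7 ± 8.96 CPM, was the one glutathione peroxidase among the members above 1 CPM in SKBR3.

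Also lower in SKBR3 controls were AKR1C3, with a log2 difference of -4.51 ± 0.23, NNT (-4.51 ± 0.06), GSTP1 (-4.14 ± 0.06) and GSTO1 (-2.71 ± 0.13), each called. For NNT this is 22.8-fold, and for GSTP1 17.6-fold. The genes highest in SKBR3 controls against MDA-MB-231 controls were EPHX1 (3.12 ± 0.06, 109.8 ± 3.59 against 12.8 ± 1.24 CPM), ABCC2 (2.28 ± 0.09), GLRX2 (2.02 ± 0.06), GSTM3 (1.74 ± 0.05), BLVRB (1.32 ± 0.06) and TXNRD2 (1.17 ± 0.06). Of the mitochondrial members 5 were higher in SKBR3 (GLRX2, TXNRD2, PRDX5, SOD2 and TXN2) and 3 lower (NNT, GLRX5 and PRDX3). Among the regulators KEAP1 was 2.35-fold lower in SKBR3 controls (log2 fold change -1.24 ± 0.06 SE, adjusted p = 6.03e-15), NFE2L2, BACH1 and MAFG were lower by between -0.39 and -0.44 on the log2 scale, and SQSTM1 was higher (0.55 ± 0.05).

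**Figure D4:**
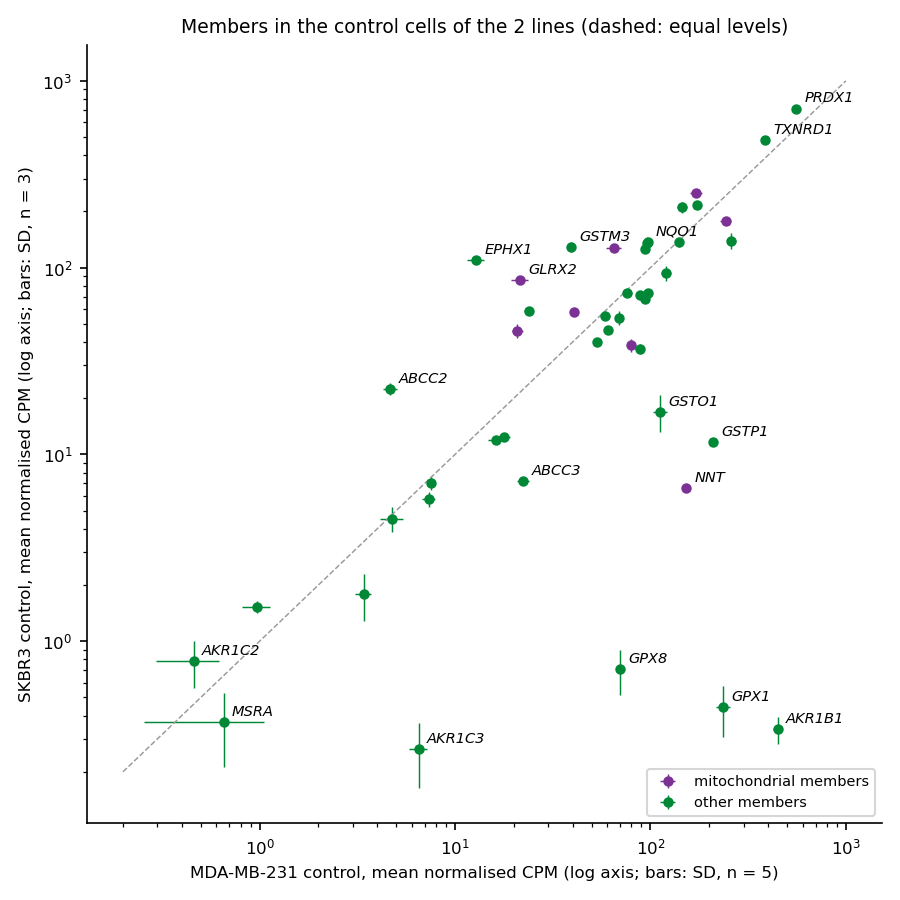
Mean normalised CPM of each member in MDA-MB-231 controls (x axis, log scale, n = 5) and SKBR3 controls (y axis, log scale, n = 3), bars being the SD, with mitochondrial members in purple, other members in green and equal levels on the dashed line; GPX7, at 0 in SKBR3, is not drawn. AKR1B1, GPX1 and GPX8 lie under 1 CPM in SKBR3 and above 50 CPM in MDA-MB-231, NNT and GSTP1 lie far under the line, and EPHX1, ABCC2 and GLRX2 lie above it.

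Levels of different genes can be compared only per length, here as CPM per kilobase of merged annotated exons. On that scale PRDX1 ranked first in controls of both lines, at 364 ± 10.6 in MDA-MB-231 and 467 ± 19.4 in SKBR3. TXN followed in MDA-MB-231 (228 ± 11.4), then GPX1 (164 ± 13.5), AKR1B1 (122 ± 6.65) and GSTP1 (109.6 ± 4.99). In SKBR3 PRDX5 (143 ± 7.21) and TXN (122 ± 12.2) followed, and then PRDX6 (91.6 ± 3.34) and TXNRD1 (71.7 ± 2.22). With MitoQ, TXN (236 ± 10.9) and PRDX1 (231 ± 11.5) lay within each other's spread in MDA-MB-231, while NQO1 went from rank 16 to rank 8 and PRDX3 from rank 8 to rank 13. Among the mitochondrial members PRDX5 and PRDX3 lay highest on this scale in MDA-MB-231 controls (72.9 ± 6.57 and 70.9 ± 4.60, not distinguishable by their spread). With MitoQ PRDX5 stood at 119 ± 16.2 and PRDX3 at 44.4 ± 3.15. These ranks depend on the merged length, which takes in every annotated exon: 16493 bases for SOD2, 3417 for PRDX3 and 893 for PRDX5. SOD2, at 171 CPM in MDA-MB-231 controls, thus stood at 10.4 per kilobase. Ranks by the length of the transcripts in use were not tested.

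Other genes of the pathway, taken from lists chosen with earlier results of these data known, gave the setting. Of all genes tested 29.9% rose and 27.6% fell in MDA-MB-231, and 13.8% rose and 14.1% fell in SKBR3. The lists have no test against these shares. Of 29 further NRF2 targets 26 were tested in each line; 17 rose and 5 fell in MDA-MB-231 (median 0.39), and 11 rose and 3 fell in SKBR3 (median 0.11). The smallest p-values in MDA-MB-231 were those of the ferritin chains FTH1 (1.27 ± 0.05) and FTL (1.62 ± 0.07), which have many processed pseudogenes, and of the haem transporter SLC48A1 (1.38 ± 0.07). In SKBR3 SLC7A11, the cystine importer (1.22 ± 0.08), and FTH1 (0.73 ± 0.05) were among those with the smallest p-values. In MDA-MB-231 SLC7A11 gave 1.98 ± 0.12 and was called higher.

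Of 14 further regulators 5 rose and 6 fell in MDA-MB-231 (median -0.15), and 1 rose and 3 fell in SKBR3 (median -0.09). In MDA-MB-231 NFE2L1, a relative of NRF2, rose (1.01 ± 0.05), and NFE2L3, another relative, fell (-0.70 ± 0.05), as did RBX1, the RING subunit of cullin ligases (-0.57 ± 0.07). In SKBR3 the small Maf MAFK rose (0.27 ± 0.05), while CAND1, a cullin exchange factor (-0.18 ± 0.03), and DPP3, a peptidase that binds KEAP1 (-0.27 ± 0.06), fell. Of 29 further antioxidant enzymes 7 rose and 11 fell in MDA-MB-231 (median -0.02), with PRXL2A (-0.63 ± 0.05), GLRX3 (-0.53 ± 0.05) and MGST2 (-0.73 ± 0.07) having the smallest p-values. In SKBR3 28 of them were tested, 3 rose and 7 fell (median -0.01). There GPX3, the secreted glutathione peroxidase, rose (0.66 ± 0.12), and IDH1 (-0.21 ± 0.04) and TXNL1 (-0.26 ± 0.05) fell. For the regulators and antioxidant enzymes too, the shares of all genes were 29.9% higher and 27.6% lower in MDA-MB-231. In SKBR3 those shares were 13.8% and 14.1%.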

How the data were processed

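The table held estimated counts for each gene in 16 RNA-seq libraries, which the authors deposited as whole numbers, so no rounding was needed. Per the submitters' processing notes, Salmon and edgeR were used with build GRCh38; their versions, the annotation release and the step from transcripts to genes are not given in the sources used here. Genes were matched by ID to GENCODE release 29 for position, type and exon length (35003 of 35106).

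After the filterByExpr filter and TMM scaling, robust quasi-likelihood models were fitted in edgeR 4.0.16 (R 4.3.3) and given two-sided F tests, with Benjamini-Hochberg adjustment over all genes tested. An SE was obtained by dividing the size of the log2 fold change by the root of the F statistic. MitoQ was compared with control in each line alone, the 2 effects were compared by the interaction term over 16 libraries, and the lines were compared over 8 controls. The procedure was tested on simulated data. Within each group no pair of libraries was identical or agreed within sampling noise.

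The members and gene lists were chosen with earlier results of these data known. Every member is accounted for; the largest change of each role and line and the mitochondrial members are given per library, and of each further list the 3 smallest p-values per line are named, except 1 gene that is not reported here. Counting intervals are exact binomial at 95%, and intervals and floors cover counting error only. The share of 31-base stretches found in other genes was counted over GENCODE transcripts. Alternatives were median-ratio size factors, DESeq2 1.42.0, no filter, a filter at 1 CPM, a replicate block, a single fit, each library left out in turn and, chosen after seeing the data, plain library totals.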

Additional observations from a re-analysis of the deposited data

Results flagged for a closer look

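In 6 of 96 combinations of a member and a group of 5 libraries, 1 library lay far from the others by Dixon's criterion; chance gives such a library in about 1 in 20 groups. MDA-MB-231 MitoQ library 2 accounts for 3 of them: it was the lowest for HMOX1 (5.34 CPM) and the highest for TXNRD1 (733 CPM) and GLRX5 (63.7 CPM). The others were PRDX1 in control library 4 (527 CPM, the lowest), PRDX3 in control library 5 (269.7 CPM, the highest) and PRDX6 in MitoQ library 1 (179 CPM, the lowest), all of MDA-MB-231. HMOX1, TXNRD1, GLRX5, PRDX1 and PRDX3 were called in that line without the library concerned as well, and so was PRDX6.

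The effect of MitoQ differed between the lines for 26 members by the interaction term. Each value is the log2 effect in SKBR3 minus that in MDA-MB-231. It was negative for the regulators NFE2L2 (-0.37), BACH1 (-0.40) and SQSTM1 (-0.80). The reductases NQO1 (-0.97), AKR1C1 (-0.82), AKR1C2 (-1.23) and BLVRB (-0.26) were negative too. So were OSGIN1 (-0.45), ABCC3 (-1.13), EPHX1 (-0.42), TXN (-0.22), PRDX5 (-0.69) and GLRX2 (-0.38). The difference was positive for AKR1B1 (0.92), AKR1B10 (0.93), ABCC1 (0.54), GSTM3 (0.27) and GLRX (0.46). Positive values were also found for PRDX1 (0.48), PRDX2 (0.26), PRDX3 (0.27), PRDX4 (0.36), SOD1 (0.27), CAT (0.30), GLRX5 (0.32) and NNT (0.28).

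Of these 26, 11 lost their call in at least 1 alternative. AKR1B1 and TXN each lost it in 13. For AKR1B1 these were other size factors, DESeq2, no filter, the replicate block, plain totals, and the removal of MDA-MB-231 control libraries 1, 2 or 5, MitoQ library 2, SKBR3 control libraries 1 or 3, or MitoQ libraries 1 or 2. For TXN they were no filter, the replicate block, and the removal of MDA-MB-231 control libraries 1 to 4, MitoQ libraries 2 to 5, SKBR3 control library 1, or SKBR3 MitoQ libraries 1 or 2. AKR1C1 lost it without MDA-MB-231 control library 3, SKBR3 control libraries 2 or 3, or SKBR3 MitoQ library 1, and with no filter. AKR1C2 lost it without SKBR3 control library 1, and BLVRB without SKBR3 control library 2 or MitoQ library 1. NNT lost it with DESeq2, no filter, plain totals, and without SKBR3 control library 3 or MitoQ library 1. OSGIN1 lost it without SKBR3 control libraries 2 or 3 or MitoQ libraries 1 or 2, and PRDX2 with plain totals and without SKBR3 control library 2 or MitoQ library 3. CAT, PRDX3 and GSTM3 lost it with plain totals.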

How the results depend on the processing

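No called result reversed its direction under any alternative run. Values of members not called in either setting changed sign in 16 of the alternatives' values in MDA-MB-231, 7 in SKBR3, 31 for the interaction and 15 for the control lines. In SKBR3 the single fit over all libraries called 2788 genes and 14 members, against 4202 and 22, and DESeq2 called 3410 and 19. The cause was not tested. The SKBR3 calls lost in the single fit or with DESeq2 are not named by gene above, so the losses named there are not complete. Leaving out 1 library at a time gave 2565 to 4547 genes and 14 to 23 members in SKBR3, the lowest without MitoQ replicate 2 and the highest without control replicate 3. In MDA-MB-231 it gave 34 to 37 members, for the interaction 20 to 26 and for the controls 40 to 43. With plain library totals, chosen after seeing the data, the median log2 fold change of the rule's other members in MDA-MB-231 was 0.28 against 0.22. That of its mitochondrial members was -0.09 against -0.15. The cause was not tested.

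Over all alternatives and members, 791 of 815 values kept their side of the threshold in MDA-MB-231, 506 of 566 in SKBR3, 992 of 1055 for the interaction and 660 of 670 for the control lines. Calls were lost in 11, 50, 49 and 8 of these and gained in 13, 10, 14 and 2.

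Whether the replicate numbers of the labels pair the libraries is not settled here. Deviations of same-numbered control and MitoQ libraries correlated at -0.13 to 0.03 in MDA-MB-231 and 0.00047 to 0.10 in SKBR3. Not every library correlated best with its own number. With so few libraries these correlations cannot decide it, and no block was used in the main fits. With the replicate block 34, 23, 24 and 41 members were called in MDA-MB-231, SKBR3, the interaction and the controls, against 35, 22, 26 and 42. Of all genes the block called 8363 in MDA-MB-231 and 4758 in SKBR3, against 8805 and 4202.

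Depth limits the members under 1 CPM, such as MSRA, AKR1C2 and, in SKBR3, AKR1B1, AKR1C3, GPX1, GPX7 and GPX8.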
